A study of Homo sapiens with 16 samples.

Results

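MALAT1, NEAT1, KCNQ1OT1 and MEG3 are long noncoding RNAs known mainly from the cell nucleus. They were picked by symbol from the 56832 gene names of a human count table, and all 4 were found and passed the filter on low counts, among 23100 genes tested. The libraries come from H69, a small cell lung cancer line, and from H69M, a second line that the labels also call small cell lung cancer. In each line sheIF6 cells carried a lentiviral shRNA against EIF6 and shNTC cells a control shRNA. The genotype is labelled eIF6 knockdown for sheIF6 and WT for shNTC, though shNTC cells carried an shRNA too. The number of shRNA sequences or clones behind either label is not given in the sources used here. All cells grew in RPMI medium with serum. From each, polysomal RNA was taken from fractions of a sucrose gradient and cytoplasmic RNA from a hypotonic lysate with cycloheximide, Triton X-100 and deoxycholate. That gives 8 groups of 2 libraries, 16 in all. No nuclear or whole-cell RNA was analysed here, so RNA released from nuclei into the lysate and RNA of the cytoplasm cannot be told apart.

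Nuclear retention keeps an RNA from the ribosomes. MALAT1 lies in nuclear speckles, the stores of splicing factors, and NEAT1 is the scaffold of paraspeckles, bodies of RNA and RNA-binding protein beside the speckles. KCNQ1OT1 is an imprinted RNA, read from the paternal chromosome across the KCNQ1 gene, which it helps to silence with its neighbours. MEG3 is imprinted too, read from the maternal chromosome beside DLK1, and is often lost in tumours.

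Library totals ran from 36005326 to 87269772 counts, and the counts of 1 library ranged from 700 to 18216 for MALAT1, 340 to 24183 for NEAT1, 828 to 38843 for MEG3 and 82 to 792 for KCNQ1OT1. EIF6 was lower in both sheIF6 libraries than in both shNTC libraries of each line and fraction, by -0.52 to -1.24 on the log2 scale, and no change of it passed the adjusted test of edgeR. Summed over 6 markers, neuroendocrine genes stood at 136 to 600.0 CPM in the 8 H69M libraries and 1600 to 3492 CPM in the 8 H69 libraries. NCAM1, 1 of these 6, overlapped between the lines, at 112 to 240 CPM in H69M and 197 to 274 CPM in H69. The 5 non-neuroendocrine markers summed to 2765 to 5191 CPM in H69M and 78.9 to 253 CPM in H69, where nearly all of it was CD44 (77.9 to 253 CPM). CD44 itself overlapped between the lines, at 185 to 673 CPM in H69M. Fibroblast markers summed to 6331 to 19192 CPM in H69M, almost all COL1A1, and to 1.09 to 3.81 CPM in H69, where DCN was at 0 in 6 of 8 libraries; DCN reached at most 0.681 CPM in H69M. Blood markers stayed at or below 10.7 CPM. INSM1, a neuroendocrine marker, was higher in H69M libraries numbered 2, at 28.4 to 256 CPM, than in those numbered 1, at 1.15 to 23.9 CPM. H69 shNTC cytoplasmic replicate 1 held 17.9 CPM of VIM, a mesenchymal marker, while the other 7 H69 libraries held at most 1.66 CPM.

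MALAT1 and NEAT1 lie next to each other on chromosome 11, 52147 bases apart on the plus strand of GRCh38 in GENCODE v29. MALAT1 spans chr11:65497688-65506516 and NEAT1 chr11:65422774-65445540. Neither long form ends in an ordinary poly(A) tail. A tRNA-like piece is cut off downstream, and the new end folds into a triple helix of U-rich stretches around an A-rich end. These last 100 bases before the cut are shown because they set how the 2 RNAs end, with the U-rich stretches TTTCTTTT and TTTTGCTTTT and the A-rich end AAAAAGCAAAA in capitals.

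MALAT1, chr11:65506017-65506116, plus strand: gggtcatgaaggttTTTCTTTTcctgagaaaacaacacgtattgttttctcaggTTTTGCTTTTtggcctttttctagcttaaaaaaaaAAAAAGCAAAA
NEAT1-202, chr11:65445441-65445540, plus strand: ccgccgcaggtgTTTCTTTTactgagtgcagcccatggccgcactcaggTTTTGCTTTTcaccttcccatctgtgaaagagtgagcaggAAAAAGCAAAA

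The second U-rich stretch followed by the A-rich end within 110 bases was found in 9 of 206694 GENCODE transcripts, from 3 of 57133 genes. These letters were read from the MALAT1 end itself, so the match of MALAT1 was fixed in advance. MALAT1 and NEAT1 each gave 1 of these transcripts, and the others came from the remaining gene. On the opposite strand the same pair of letters was found in 3 transcripts. The tRNA-like pieces that follow directly, mascRNA after MALAT1 at chr11:65506117-65506173 and menRNA after NEAT1 at chr11:65445541-65445598, measure 57 and 58 bases.

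mascRNA: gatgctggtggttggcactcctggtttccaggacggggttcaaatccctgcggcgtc
menRNA: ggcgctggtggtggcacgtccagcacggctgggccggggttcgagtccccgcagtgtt

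The ends of MEG3 and KCNQ1OT1 are shown for contrast, with the poly(A) signal AATAAA in capitals. MEG3-206 holds this signal near its end, with other bases between it and a short final A run. The annotated KCNQ1OT1 end holds no AATAAA in its last 60 bases, which says only that these letters are not in that window.

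MEG3-206, chr14:100860967-100861026, plus strand: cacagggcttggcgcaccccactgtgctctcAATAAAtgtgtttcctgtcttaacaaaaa
KCNQ1OT1-201, chr11:2608328-2608387, minus strand: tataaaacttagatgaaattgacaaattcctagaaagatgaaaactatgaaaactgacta

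KCNQ1OT1 is annotated as 1 unspliced transcript of 91667 bases at chr11:2608328-2699994 on the minus strand, inside KCNQ1. The strand setting of the counting is not given in the sources used here, so reads of KCNQ1OT1 and of unspliced KCNQ1 RNA cannot be told apart. KCNQ1 has 121 exon bases inside KCNQ1OT1, and its own row held 0 to 16 counts per library. MEG3 spans chr14:100779410-100861031 on the plus strand, with 48 annotated transcripts that together cover 23224 exon bases. The pentamer AGCCC, part of a motif described for nuclear localisation of a different RNA, was counted on the transcript strand as a description. It occurred 2.18 times per kb in MEG3-206, 1.47 in KCNQ1OT1, 0.967 in NEAT1-202 and 0.919 in MALAT1-202, against a median of 1.37 over 86337 transcripts of at least 1 kb, with quartiles of 0.672 and 2.37.

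Compared per length, as RPKM on the TMM scale, MALAT1 had the highest mean of the 4 RNAs in the cytoplasmic fraction. The polysomal means of MEG3 and MALAT1 over 8 libraries were close, though not in every setting. The mean over 8 libraries was 4.13 RPKM in polysomal RNA and 29.3 in cytoplasmic RNA for MALAT1, and 4.39 and 10.8 for MEG3. By setting, polysomal MEG3 and MALAT1 averaged 9.67 and 3.36 RPKM in H69M sheIF6 and 3.50 and 3.17 in H69M shNTC. In H69 they averaged 1.59 and 5.53 RPKM in sheIF6 and 2.79 and 4.47 in shNTC, the opposite order. NEAT1 averaged 2.83 RPKM in polysomal and 9.65 in cytoplasmic RNA, over the length of its long form, which understates the level if the short form dominates. MEG3 was taken over the 23224 exon bases of all its transcripts, while MEG3-206 alone has 1835 bases. Its level is likewise understated if short forms dominate, so the order of MALAT1 and MEG3 depends on the length used. KCNQ1OT1, spread over a far longer transcript, averaged 0.0421 and 0.0994. In the cytoplasmic fraction the lowest MALAT1 library, at 17.8 RPKM, lay below the highest NEAT1 library, at 26.5, and the highest MEG3 library, at 19.9, so these ranges overlapped. Together the 4 RNAs took 0.00478 to 0.0396% of all counts in polysomal libraries and 0.0474 to 0.138% in cytoplasmic libraries, without overlap.

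**Figure D1:**
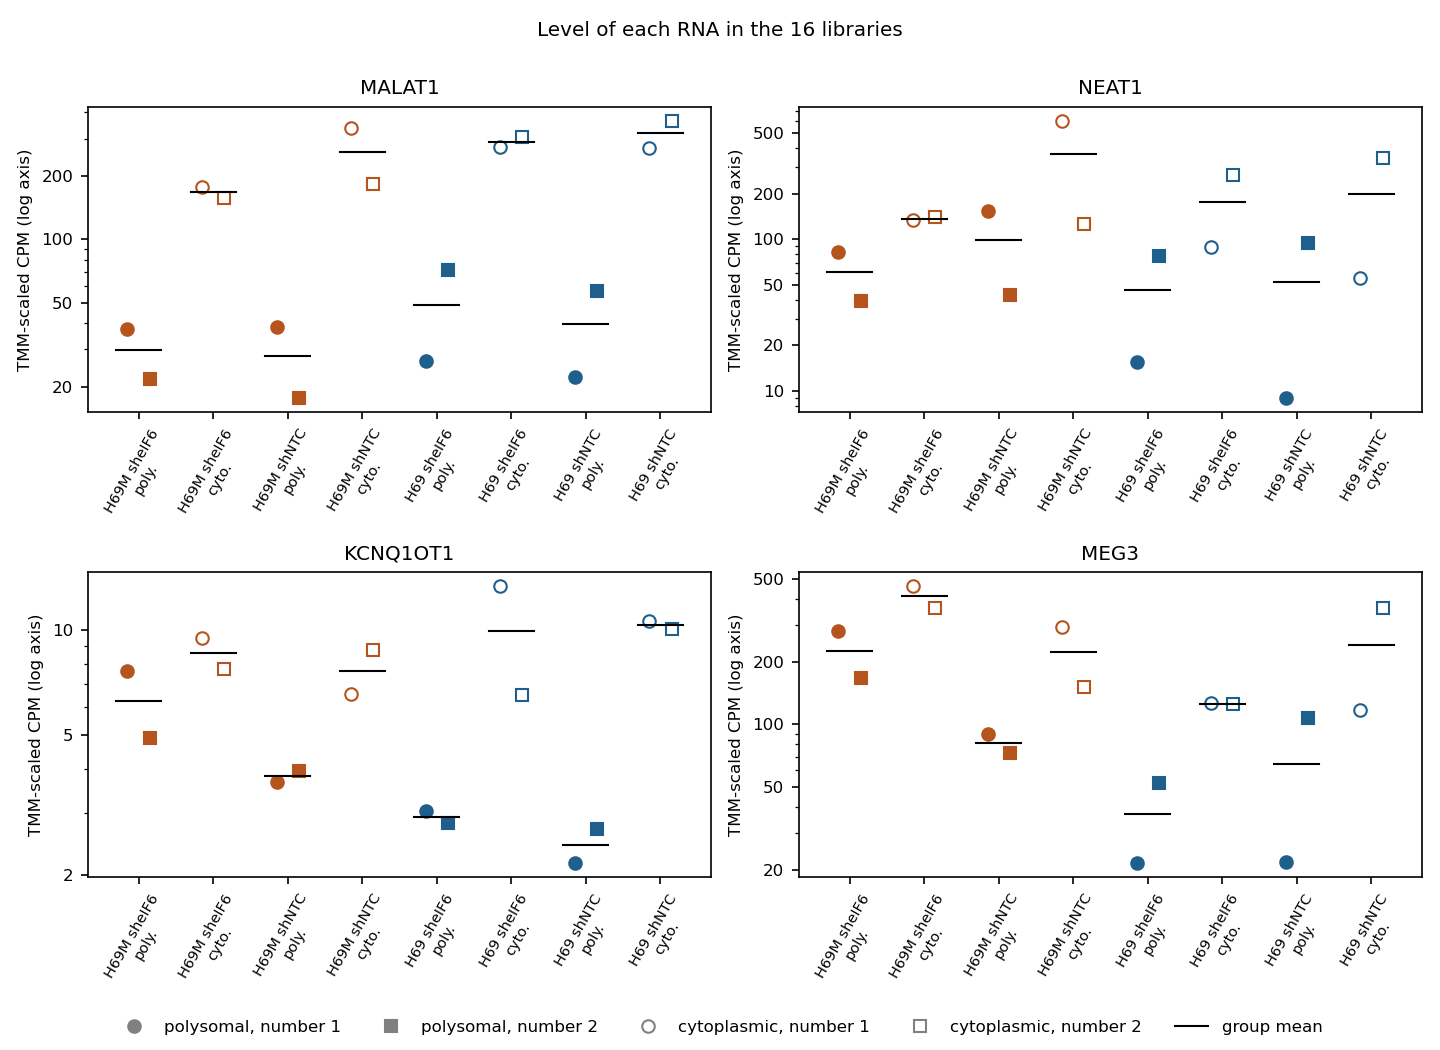
Level of each RNA in every library as TMM-scaled CPM on a log axis, with groups in pairs of polysomal (filled, left) and cytoplasmic (open, right); circles are libraries numbered 1, squares those numbered 2, bars group means. Polysomal symbols lie below cytoplasmic symbols of the same number in all 8 pairs of each panel, and the NEAT1 symbols of 1 group are up to 10.6-fold apart.

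MALAT1, MEG3 and KCNQ1OT1 were lower on polysomes than in the cytoplasmic fraction when averaged over both lines and both shRNAs. The NEAT1 estimate was negative. It did not pass without the replicate number as a block within each line, and passed with it (edgeR adjusted p = 0.000215). Without the block the mean log2 changes were -2.82 for MALAT1, -1.73 for NEAT1, -1.50 for MEG3 and -1.33 for KCNQ1OT1. In bulk libraries such as these, levels are shares of each library. In the comparisons between lines or shRNAs further on, fewer cells carrying an RNA and less of it per cell cannot be told apart. Whether the numbered libraries of a group came from separate cultures is not labelled, so each p-value speaks only to the spread of these libraries, which may be technical.

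MALAT1 stood at 37.6 and 21.8 CPM in polysomal against 177 and 157 CPM in cytoplasmic libraries of H69M sheIF6, numbers 1 and 2. In H69M shNTC it stood at 38.4 and 17.6 CPM in polysomal against 337 and 183 CPM in cytoplasmic RNA. In H69 the sheIF6 values were 26.4 and 71.2 CPM in polysomal against 274 and 305 CPM in cytoplasmic RNA, and the shNTC values 22.3 and 56.7 against 271 and 364 CPM. Every polysomal library thus lay below every cytoplasmic library, which was so for 2.91% of genes tested. The mean log2 change of -2.82 (SE 0.290, edgeR adjusted p = 4.13e-05) was lower than that of all but 1.62% of genes. It passed in each line and shRNA too: -2.49 (adjusted p = 0.0337) in H69M sheIF6, -3.21 (0.0141) in H69M shNTC, -2.57 (0.0174) in H69 sheIF6 and -3.01 (0.00776) in H69 shNTC.

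Single libraries decided some of these MALAT1 calls, though never the direction. In H69M sheIF6 the call was lost without any 1 of its own 4 libraries (-2.94 to -2.16, adjusted p = 0.0835 to 0.191) and without any 1 of the 4 H69 cytoplasmic libraries (adjusted p = 0.0542 to 0.0626). In H69M shNTC it was lost without cytoplasmic replicate 1 (-2.70, adjusted p = 0.0661) or polysomal replicate 2 (-2.76, adjusted p = 0.0941). In H69 sheIF6 it was lost without cytoplasmic replicate 1 (-2.64, adjusted p = 0.106), cytoplasmic replicate 2 (-2.49, adjusted p = 0.0942) or polysomal replicate 1 (-2.02, adjusted p = 0.131), and in H69 shNTC without cytoplasmic replicate 2 (-2.78, adjusted p = 0.0514) or polysomal replicate 1 (-2.48, adjusted p = 0.0665). The mean over the 4 settings stayed called without any 1 of the 16 libraries.

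NEAT1 had less in the polysomal than in the cytoplasmic library of each of the 8 pairs, and its estimates had the largest SEs of the 4 RNAs. It stood at 82.4 and 39.1 CPM in polysomal against 134 and 139 CPM in cytoplasmic RNA of H69M sheIF6, and at 155 and 42.6 against 604 and 126 CPM in H69M shNTC. In H69 sheIF6 it stood at 15.4 and 77.3 CPM in polysomal against 89.4 and 265 CPM in cytoplasmic RNA, and in H69 shNTC at 8.94 and 94.8 against 55.2 and 343 CPM. The 2 fractions overlapped in both shNTC settings but not in either sheIF6 setting. Separation with polysomal RNA lower was found for 26.2% of genes in H69M sheIF6 and 34.3% in H69 sheIF6. The mean log2 change of -1.73 (SE 0.636, edgeR adjusted p = 0.0587) missed the limit of 0.05. It passed with the replicate number as a block within each line (-1.90, adjusted p = 0.000215), and without H69 shNTC polysomal replicate 2 (-2.37, adjusted p = 0.0287). By setting, NEAT1 did not pass without the block (-1.17 to -1.94), and with it passed in H69M shNTC (-1.81, adjusted p = 0.0471), H69 sheIF6 (-2.22, adjusted p = 0.0181) and H69 shNTC (-2.16, adjusted p = 0.0174).

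KCNQ1OT1, the imprinted RNA at 11p15, was called lower on polysomes in H69 but not in H69M, and the difference between the lines, given further on, did not pass. Polysomal against cytoplasmic values were 7.62 and 4.91 against 9.44 and 7.70 CPM in H69M sheIF6, and 3.68 and 3.95 against 6.55 and 8.73 CPM in H69M shNTC. They were 3.03 and 2.80 against 13.3 and 6.52 CPM in H69 sheIF6, and 2.16 and 2.70 against 10.6 and 10.0 CPM in H69 shNTC. The fractions did not overlap within any of the 4 settings, with polysomal RNA lower. Such a separation was found for 24.5 to 34.3% of genes by setting. Across settings, H69M sheIF6 polysomal replicate 1 stood above the lowest cytoplasmic libraries. The mean change was -1.33 (SE 0.198, edgeR adjusted p = 0.000280). It passed in H69 sheIF6 (-1.77, adjusted p = 0.0171) and H69 shNTC (-2.09, adjusted p = 0.00706), but not in H69M sheIF6 (-0.45, adjusted p = 0.596) or H69M shNTC (-0.999, adjusted p = 0.167). The H69 sheIF6 call was lost without any 1 of its own libraries (-2.19 to -1.16, adjusted p = 0.0566 to 0.237), the H69 shNTC call without cytoplasmic replicate 1 (-2.04, adjusted p = 0.0533) or polysomal replicate 1 (-1.93, adjusted p = 0.0658).

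MEG3, the maternally expressed RNA of 14q32, was also lower on polysomes, with a mean change of -1.50 (SE 0.355, edgeR adjusted p = 0.00696). It stood at 282 and 167 CPM in polysomal against 463 and 361 CPM in cytoplasmic RNA of H69M sheIF6, and at 89.7 and 73.1 against 295 and 152 CPM in H69M shNTC. In H69 the values were 21.5 and 52.2 against 127 and 125 CPM in sheIF6, and 21.8 and 108 against 117 and 364 CPM in shNTC. The fractions of MEG3 were separate within all 4 settings. Separation of this kind was found for 26.2% of genes in H69M sheIF6, 24.5% in H69M shNTC, 34.3% in H69 sheIF6 and 32.3% in H69 shNTC. No setting passed alone without the block (-0.88 to -1.90), while with it MEG3 passed in H69M shNTC (-1.39, adjusted p = 0.0483), H69 sheIF6 (-2.06, adjusted p = 0.00848) and H69 shNTC (-2.01, adjusted p = 0.00710). H69 shNTC also passed without its polysomal replicate 2 (-3.46, adjusted p = 0.0330).

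Counted over the 4 RNAs, 3 were called lower on polysomes in the mean of the 4 settings, where 17.4% of all genes were called lower, and 4 with the block (21.1% of genes). By setting, 1 was called lower in H69M sheIF6 (2.26% of genes), 1 in H69M shNTC (2.54%), 2 in H69 sheIF6 (4%) and 2 in H69 shNTC (5.2%). With the block these counts were 1 (4.71%), 3 (5.02%), 4 (7.2%) and 4 (9.01%). Scaling by total counts in place of TMM moved the median of all genes in the mean comparison by -0.26, and changed the split of called genes from 3630 higher and 4015 lower to 1926 higher and 6222 lower, so the log2 changes here are relative to TMM.

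**Figure D2:**
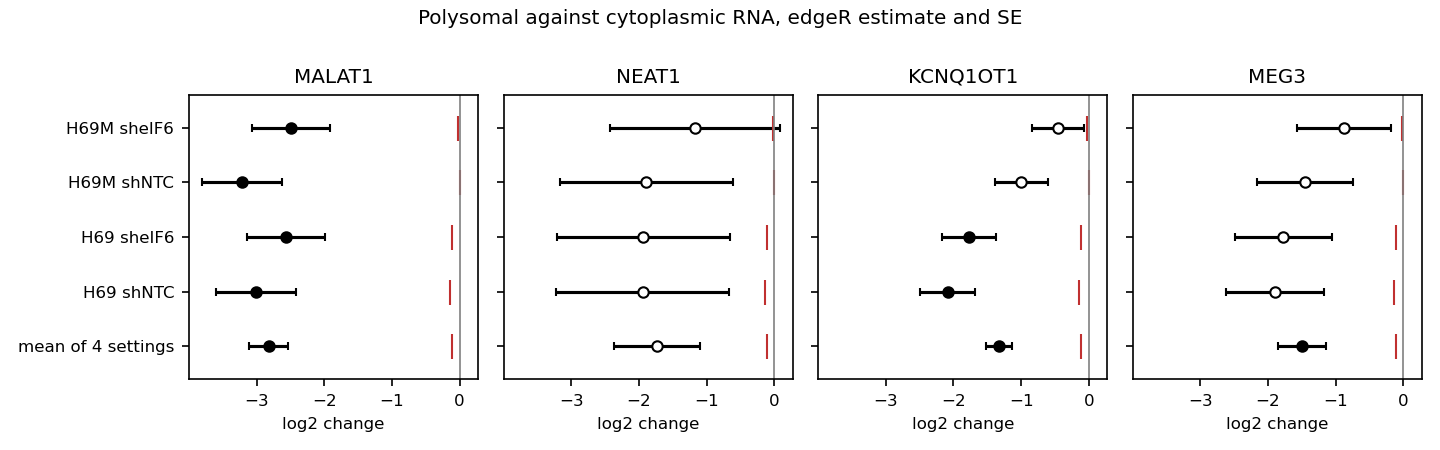
Log2 change of polysomal against cytoplasmic RNA by line and shRNA and for their mean, as estimated by edgeR, with bars of 1 SE; filled points passed an adjusted p of 0.05 and red ticks mark the median of all 23100 genes. All points lie below 0, MALAT1 lowest at -2.49 to -3.21 by setting, and the bars of NEAT1 are the widest.

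Expressed as a percentage of the cytoplasmic level in the library of the same number, the polysomal level of MALAT1 was 8.22 to 23.4%, with a median of 12.6% over 8 pairs. This percentage, called the residue here, compares shares of 2 libraries and is not a fraction of molecules. The medians were 27.8% for NEAT1 (16.2 to 61.4%), 36.1% for MEG3 (16.9 to 60.8%) and 44.1% for KCNQ1OT1 (20.3 to 80.6%). All 4 RNAs were below 100% in all 8 pairs, as were 12.8% of genes tested. RNA made in mitochondria, which cytoplasmic ribosomes do not translate, had a residue of 9.59 to 53.3%, with a median of 25.1%, summed over its 13 mRNAs. The summed residue of other nuclear long noncoding RNAs was 30.9 to 85.0% with a median of 50.6%, and that of long noncoding RNAs known from the cytoplasm 34.8 to 101% with a median of 63.0%.

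In H69 the residue moved with the library number. The H69 pair numbered 2 held more than the pair numbered 1 for all 4 RNAs and both shRNAs, which was so for 30.7% of genes. For MALAT1 the H69 values were 9.64 and 23.4% in sheIF6 and 8.22 and 15.6% in shNTC, numbers 1 and 2. Mitochondrial mRNAs followed the same order, at 10.6 and 27.1% in sheIF6 and 9.59 and 23.6% in shNTC. In H69M the orders parted. MALAT1 was at 21.2 and 13.9% in sheIF6 and 11.4 and 9.64% in shNTC, higher in number 1, while mitochondrial mRNAs were at 26.6 and 53.3% and at 13.5 and 38.8%, higher in number 2.

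The 2 lines separated for KCNQ1OT1 alone among the 4 RNAs. Its residue was 80.6 and 63.8% in H69M sheIF6 and 56.3 and 45.3% in H69M shNTC, against 22.8 and 43.0% in H69 sheIF6 and 20.3 and 26.9% in H69 shNTC. All 4 H69M pairs lay above all 4 H69 pairs, which was so for 14.6% of genes. The summed level of 12 other nuclear long noncoding RNAs separated in the same way, at 54.5 to 85.0% in H69M and 30.9 to 46.7% in H69. That of the long noncoding RNAs known from the cytoplasm was 62.3 to 101% in H69M and 34.8 to 63.8% in H69, nearly separate as well. For MALAT1 the ranges were 9.64 to 21.2% in H69M and 8.22 to 23.4% in H69 and overlapped fully. NEAT1 and MEG3 had higher ranges in H69M that overlapped those of H69 in part. NEAT1 stood at 25.6 to 61.4% in H69M and 16.2 to 29.1% in H69, and MEG3 at 30.4 to 60.8% and 16.9 to 41.8%. The difference of the KCNQ1OT1 change between the lines was 1.31 on the log2 scale in sheIF6 (SE 0.552, edgeR adjusted p = 0.266) and 1.09 in shNTC (SE 0.553, adjusted p = 0.593). The cytoplasmic NORAD had differences of 1.74 (edgeR adjusted p = 0.0971) and 1.53 (adjusted p = 0.386), and OIP5-AS1 of 1.31 (adjusted p = 0.149) and 1.29 (adjusted p = 0.417), so estimates of this size were not limited to nuclear RNAs. None of the 4 RNAs passed in either comparison, in which edgeR called 0% of genes, with 3636 and 2127 genes at an unadjusted p under 0.05 and 1248 and 194 called by DESeq2.

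**Figure D3:**
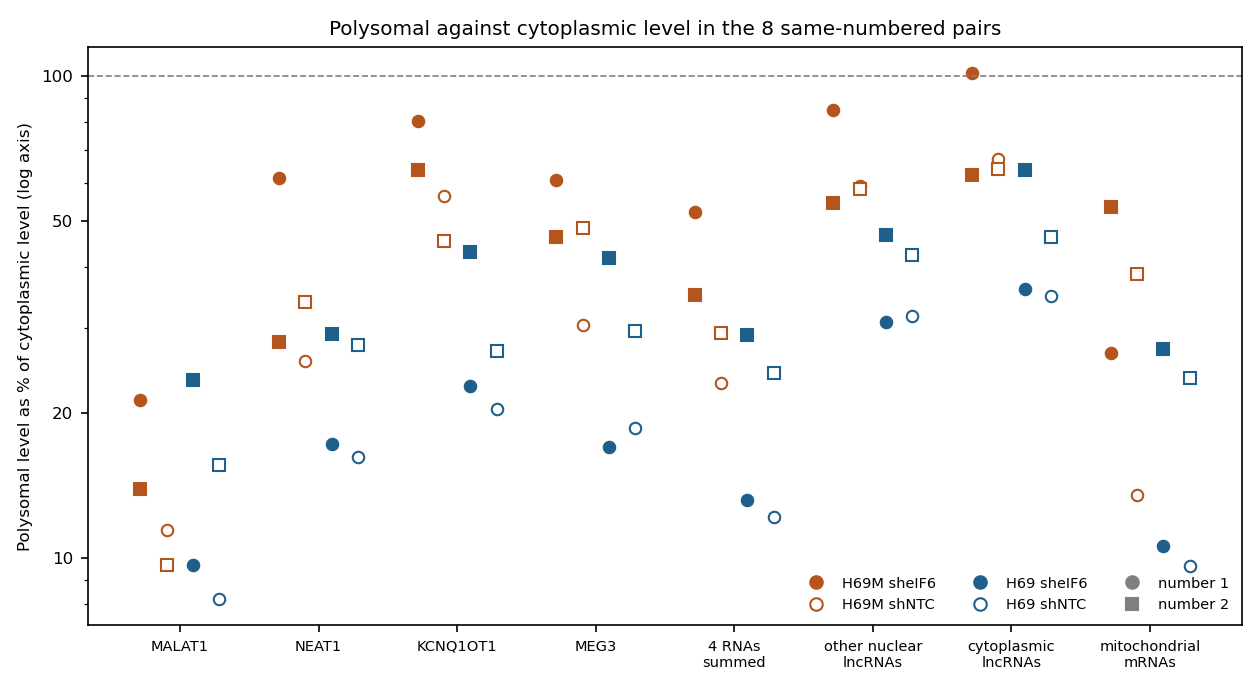
Polysomal level as a percentage of the cytoplasmic level in each of the 8 same-numbered pairs, on a log axis, for the 4 RNAs, their sum, and the summed levels of 3 lists; colour marks the line, fill the shRNA and shape the number, and the dashed line marks 100%. MALAT1 pairs lie at 8.22 to 23.4%, and KCNQ1OT1 is the 1 RNA of the 4 whose H69M pairs all lie above its H69 pairs.

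Of 12 other nuclear long noncoding RNAs, 10 were called lower on polysomes in the mean of the 4 settings and none higher, with a median log2 change of -1.23 against -0.11 over all genes, of which 17.4% were called lower. TUG1, a chromatin-linked RNA, was lower by -0.81 (edgeR adjusted p = 0.000184) and FTX, from the X inactivation centre, by -1.48 (adjusted p = 8.63e-05). Of 10 long noncoding RNAs known from the cytoplasm, 9 were called lower, with a median of -0.91. NORAD, which binds PUMILIO proteins in the cytoplasm, was lower by -1.01 (adjusted p = 0.000464) and OIP5-AS1 by -1.63 (adjusted p = 1.89e-05). All 13 mitochondrially encoded mRNAs were lower, with a median of -2.12 and MT-ND4 at -2.78. Lower polysomal levels were thus shared by noncoding RNAs of either compartment. MALAT1, at -2.82, had a lower estimate than each gene of these 3 lists, and differed from MT-ND4 by less than its SE of 0.290.

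The mRNAs of proteins that these RNAs bind were counted in the same comparison. Of 15 mRNAs of paraspeckle proteins, the partners of NEAT1, 12 were called higher on polysomes and none lower, with a median of 0.71, where 15.7% of genes were called higher. HNRNPA1 was higher by 0.95 (edgeR adjusted p = 9.48e-05), HNRNPK by 0.90 (adjusted p = 0.000357) and NONO by 0.65 (adjusted p = 0.00330). Among 15 mRNAs of speckle and MALAT1-binding proteins, 5 were called higher and 3 lower, with SRSF3 at 0.57 (adjusted p = 0.00130) and SRRM2 at -0.41 (adjusted p = 0.00858). With the block 13 paraspeckle and 6 speckle mRNAs were called higher, where 19.4% of genes were, and the counts called lower were as without it. The added calls, named after their values were seen, were CPSF6 (0.26, adjusted p = 0.0390) and SRSF2 (0.35, adjusted p = 0.0112). With scaling by total counts, which called 8.34% of genes higher and 26.9% lower, 9 paraspeckle mRNAs were called higher and 1 lower, and 4 speckle mRNAs higher and 6 lower.

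No coding neighbour of the 4 RNAs in the genome was called lower on polysomes. At 11q13, beside MALAT1 and NEAT1, 7 of 9 genes were called higher on polysomes and none lower, against 15.7% and 17.4% of all genes, among them LTBP3 at 0.72 (edgeR adjusted p = 0.00129) and FRMD8 at 0.78 (adjusted p = 0.00105). At 11p15, around KCNQ1OT1, 4 of 10 were called higher and none lower, with TSSC4 at 0.99 (adjusted p = 9.97e-05) and CD81 at 0.75 (adjusted p = 0.00309). At 14q32, 2 of 6 tested genes were called higher and none lower, with DLK1 at 2.02 (adjusted p = 0.000333). With the block, where 19.4% of genes were called higher and 21.1% lower, the counts called higher were 7, 5 and 3. The added calls were ASCL2 at 11p15 (1.39, adjusted p = 0.0243) and BEGAIN at 14q32 (0.84, adjusted p = 8.17e-05), and the noncoding MEG8 at 14q32 was called lower (-0.72, adjusted p = 0.0162); these 3 were named after their values were seen. With scaling by total counts (8.34% of genes called higher, 26.9% lower) the genes called higher numbered 5 at 11q13, 4 at 11p15 and 1 at 14q32, with none called lower. LTBP3, FRMD8, TSSC4, CD81 and DLK1 kept their direction and their call. BEGAIN, called with the block, was not called with this scaling (0.63, edgeR adjusted p = 0.178).

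The spread between the 2 libraries of a group was far wider for NEAT1 than for a typical gene. Its libraries were 10.6-fold apart in H69 shNTC polysomal, 6.22-fold in H69 shNTC cytoplasmic, 5.01-fold in H69 sheIF6 polysomal and 4.81-fold in H69M shNTC cytoplasmic RNA, against medians of 1.18 to 1.43-fold over all genes. In 6 of 8 groups, between 90.4 and 99.1% of genes were less far apart than NEAT1. Number 2 was the higher library in all 4 H69 groups and number 1 in 3 of 4 H69M groups, the exception being H69M sheIF6 cytoplasmic, at 1.04-fold. MEG3 was 4.94-fold apart in H69 shNTC polysomal and 3.11-fold in H69 shNTC cytoplasmic RNA, again with number 2 higher. KCNQ1OT1 was at most 2.04-fold apart. The INSM1 difference between H69M numbers runs the other way, higher in number 2, and its part in the NEAT1 spread was not tested.

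The study's own comparison is sheIF6 against shNTC in each line. None of the 4 RNAs passed in any of the 4 line and fraction settings, in edgeR with or without the block, in DESeq2 or in limma-voom. Among all genes edgeR called 0.0649% in H69M polysomal, 0.156% in H69M cytoplasmic, 0.00433% in H69 polysomal and 0% in H69 cytoplasmic RNA. In H69 cytoplasmic RNA 696 genes had an unadjusted p under 0.05 and DESeq2 called 78. With the block the shares were 0.879%, 1.16%, 0.108% and 0.00433% in the same order. With 2 libraries a group, a miss does not show that the levels were alike.

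MEG3 came nearest to a pattern in H69M. Both sheIF6 libraries lay above both shNTC libraries in polysomal RNA, at 282 and 167 against 89.7 and 73.1 CPM, and in cytoplasmic RNA, at 463 and 361 against 295 and 152 CPM. Such a separation in both fractions was found for 8.03% of genes. The log2 changes were 1.46 (SE 0.709, edgeR adjusted p = 0.637) in polysomal and 0.88 (SE 0.699, adjusted p = 0.685) in cytoplasmic RNA, and 1.42 (adjusted p = 0.156) and 0.94 (adjusted p = 0.276) with the block. In H69 the estimates had the other sign, -0.81 in polysomal and -0.94 in cytoplasmic RNA, and the 2 shRNAs overlapped in both fractions. The difference between the lines, a contrast added after the data were seen, was 2.28 in polysomal (edgeR adjusted p = 0.945, 0.00433% of genes called) and 1.82 in cytoplasmic RNA (adjusted p = 1.00, 0.0303% called).

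MEG9 and MEG8, noncoding neighbours of MEG3, had the same order of libraries in H69M, a separation found for 8.03% of genes. MEG8 was named after its values were seen. MEG9 stood at 13.8 and 8.17 CPM in sheIF6 against 1.64 and 1.64 CPM in shNTC polysomal RNA, and at 5.29 and 4.73 against 1.37 and 0.976 CPM in cytoplasmic RNA. MEG8 stood at 8.52 and 2.99 against 2.75 and 1.11 CPM and at 7.54 and 4.40 against 3.07 and 1.74 CPM. DLK1, the paternally expressed coding gene of the cluster, stood at 1.23 and 1.12 CPM in sheIF6 against 2.22 and 2.47 CPM in shNTC polysomal RNA, the opposite order, while its cytoplasmic libraries overlapped. BEGAIN and WDR25, the genes of the 14q32 list with the highest mean CPM, had log2 changes of 0.09 and -0.67 in H69M polysomal RNA. In H69M cytoplasmic RNA these were 0.34 and 0.12. No gene of the 14q32 list passed under knockdown in any setting.

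MALAT1 and KCNQ1OT1 had estimates of mixed sign under sheIF6, and NEAT1 was negative in all 4 settings in edgeR without the block. The MALAT1 estimate was 0.09 in H69M polysomal, -0.64 in H69M cytoplasmic, 0.31 in H69 polysomal and -0.13 in H69 cytoplasmic RNA, with SEs of 0.541 to 0.545. The NEAT1 estimates were -0.70, -1.42, -0.16 and -0.17 in the same order, with SEs of 1.24 to 1.26, and both H69 values changed sign with the block, to 0.16 and 0.23, and with limma-voom, to 0.23 and 0.16. The KCNQ1OT1 estimates were 0.71, 0.17, 0.26 and -0.06, with SEs of 0.386 to 0.395. The estimate of the polysomal minus cytoplasmic change was higher in sheIF6 than in shNTC for each of the 4 RNAs in H69M, by 0.55 to 0.72, and in H69, by 0.01 to 0.44, with no call in either line and 0% of genes called (383 genes at an unadjusted p under 0.05 in H69 and 392 in H69M, and 3 and 1 called by DESeq2). With the block the H69 values of NEAT1 and MEG3 were -0.07 and -0.04.

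**Figure D4:**
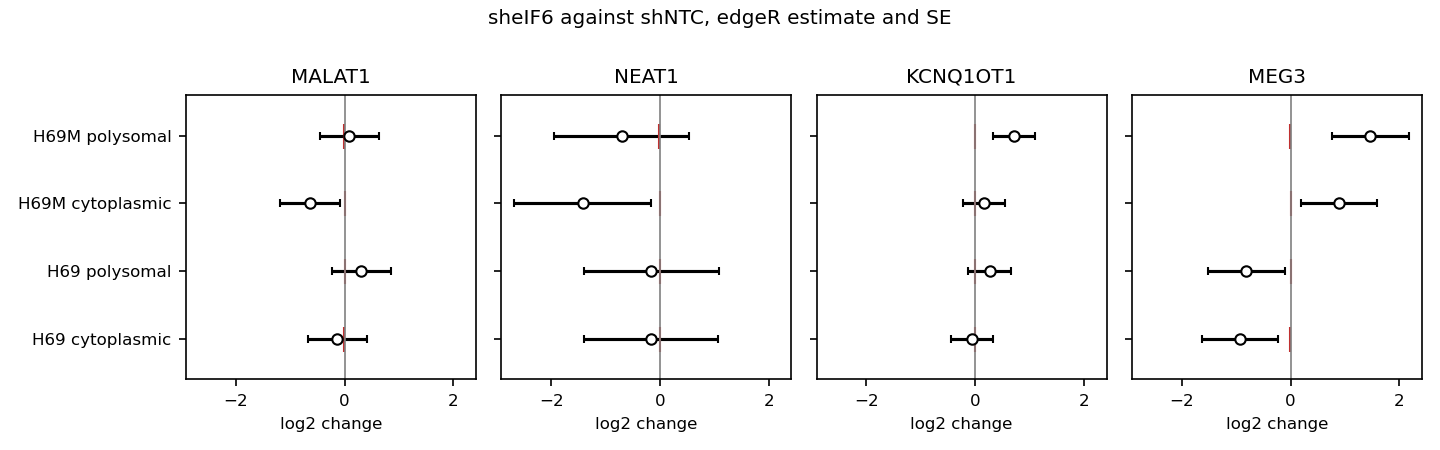
Log2 change from edgeR for sheIF6 against shNTC, by line and by fraction, with bars of 1 SE; open points did not pass an adjusted p of 0.05 and red ticks mark the median of all genes. MEG3 lies above 0 in H69M, at 1.46 and 0.88, and below 0 in H69, at -0.81 and -0.94.

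Between the lines, MEG3 and KCNQ1OT1 were higher in H69M polysomal RNA in sheIF6 cells. MEG3 had 282 and 167 CPM in H69M against 21.5 and 52.2 CPM in H69, a log2 change of 2.61 (SE 0.738, edgeR adjusted p = 0.0171). KCNQ1OT1 had 7.62 and 4.91 CPM in H69M against 3.03 and 2.80 CPM in H69, a change of 1.10 (SE 0.395, adjusted p = 0.0447). Both separated without overlap, as 35.1% of genes did in that direction, and 2 of 4 were called higher where 19% of genes were called higher (36.2% in either direction). MEG3 no longer passed without H69M sheIF6 polysomal replicate 1 (2.18, adjusted p = 0.0907) or without the H69 library of that name (2.10, adjusted p = 0.131). KCNQ1OT1 no longer passed in 13 of the 16 omissions of 1 library, with estimates of 0.75 to 1.38 and adjusted p of 0.0398 to 0.277 over the 16.

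In shNTC cells neither call was made, with MEG3 at 0.33 (adjusted p = 0.744) and KCNQ1OT1 at 0.65 (adjusted p = 0.219) in polysomal RNA, where 34% of genes were called. None of the 4 RNAs was called in cytoplasmic RNA, where 31.5% of genes were called in sheIF6 and 30.2% in shNTC cells. In cytoplasmic RNA of sheIF6 cells MEG3 was at 463 and 361 CPM in H69M against 127 and 125 CPM in H69, a change of 1.71 that did not pass without the block (edgeR adjusted p = 0.0900) and passed with it (1.56, adjusted p = 0.0103, with 20.4% of genes called higher). It also passed in DESeq2 (1.70, adjusted p = 0.0307) and in edgeR without H69 shNTC polysomal replicate 1 (1.72, adjusted p = 0.0376) or replicate 2 (1.72, adjusted p = 0.0377). These libraries were separate, as were 37.3% of genes in that direction. KCNQ1OT1 showed no call in cytoplasmic RNA, at -0.21 in sheIF6 and -0.43 in shNTC cells. NEAT1 passed in shNTC polysomal RNA with the block only (1.42, adjusted p = 0.0463; 0.93 and 0.597 without it, and 21.4% of genes called higher with it), and MALAT1 in no line comparison, at -0.29 to -0.79. The lines also differ in the neuroendocrine, mesenchymal and collagen markers given above, and the part of these in the line differences was not tested.

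Ranked by the likeness of their pattern over the 16 libraries, among 11522 genes with a mean count of at least 100, the 3 genes nearest to MALAT1 were TRAPPC2 (Pearson r = 0.98), ZNF121 (0.97) and ZNF761 (0.97). Nearest to NEAT1 were SLC25A16 (0.92), ZNF514 (0.89) and FRS3 (0.89). Among those nearest to KCNQ1OT1 were SLC25A51 (0.93) and POLR2M (0.92), and nearest to MEG3 were EP400NL (0.92), ASB16 (0.91) and ZNF700 (0.90). These correlations describe libraries that share lines, fractions and numbers. Among the 4 RNAs themselves r was 0.53 to 0.76 over all libraries, -0.14 to 0.82 within the 8 polysomal libraries, with KCNQ1OT1 and MEG3 highest, and -0.66 to 0.49 within the 8 cytoplasmic libraries.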

How the data were processed

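The values are raw counts per gene, deposited by the authors as 1 table of 16 libraries; reads were aligned with STAR and counted with HTSeq on GRCh38, per the submitters' processing notes, which give no versions or strand setting. Libraries were made with a NEBNext Ultra RNA kit, per the labels' protocols. Library totals ran from 36005326 to 87269772 counts. Groups were taken from the sample titles.

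The deposited counts went into edgeR 4.0.16 under R 4.3.3. Its filterByExpr with a minimum count of 10 left 23100 genes, scaled by TMM and fitted by a robust quasi-likelihood model with 1 mean for each of 8 groups and 8 residual degrees of freedom (common dispersion 0.153). Benjamini-Hochberg adjustment ran over the 23100 genes, and an adjusted p under 0.05 is a call. CPM values are TMM-scaled. RPKM uses the union of GENCODE v29 exons, and 29502 of the 56832 names matched 1 gene there. Each SE was taken from the log2 change and the F statistic.

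In both lines, deviations from the group mean were positively correlated between same-numbered libraries for each of the 6 group pairs (H69M, r = 0.172 to 0.578; H69, r = 0.168 to 0.280). No label states a pairing, and the numbers were read as pairs from these correlations. The main fit leaves this pairing out. With the block (number within line) the common dispersion was 0.0881 in place of 0.153. Block values are given where they change a call of the 4 RNAs or a count of listed genes. Alternatives were RLE and total-count scaling, no filter, a stricter filter (50 counts or more, 2 libraries or more), limma-voom (limma 3.58.1), DESeq2 1.42.0, blocks, 1 line alone, scaling without mitochondrial, ribosomal RNA and member genes, and leaving out each library.

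Genes named are the 4 RNAs, EIF6, up to 4 of each list by mean CPM, and the 3 genes with the highest correlation of log2 CPM (prior count 2) with each RNA, leaving out clone, antisense, pseudogene and LINC names. Markers are named from their lists. Some genes that this rule names are not reported here. The members and lists were chosen with earlier results of these data known. The fit was tested on simulated data with known changes.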

Additional observations from a re-analysis of the deposited data

How the results depend on the processing

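The mean over the 4 settings of polysomal against cytoplasmic RNA kept its direction for all 4 RNAs under each of the 9 alternatives and 16 omissions of 1 library, and 3 or 4 RNAs were called each time. NEAT1 passed there with scaling by total counts (-1.98), the stricter filter (-1.76), DESeq2 (-1.68), limma-voom (-1.85) and the block. By setting, the called RNAs numbered 4 in H69 sheIF6, 4 in H69 shNTC and 3 in H69M shNTC with the replicate block within each line. They numbered 0 in H69M sheIF6 with no low-count filter or with 1 line alone, and 0 in H69M shNTC with 1 line alone. Leaving out 1 library gave 0 to 2 in H69 sheIF6, 0 to 3 in H69 shNTC, 0 to 1 in H69M sheIF6 and H69M shNTC, and 3 to 4 in the mean. Those fits have fewer libraries; the cause of the other changes was not tested.

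For H69M against H69, 1 RNA was called in sheIF6 cytoplasmic RNA by DESeq2 and with the replicate block, and 0 to 1 when 1 library was left out. In sheIF6 polysomal RNA, 1 was called with total-count scaling and with limma-voom, 0 with no low-count filter, and 0 to 2 when 1 library was left out. With the replicate block 1 was called in shNTC polysomal RNA. MEG3 in shNTC cytoplasmic RNA (-0.11) turned to 0.035 with limma-voom and with the block within each line and to 0.026 with the block over both lines. It ran from -0.71 to 0.93 when 1 library was left out, and from -0.40 to 1.90 in shNTC polysomal RNA, and KCNQ1OT1 in sheIF6 cytoplasmic RNA from -0.63 to 0.40.

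Under sheIF6 no RNA was called in any alternative. NEAT1 turned to 0.16 with limma-voom and 0.23 with the block in H69 cytoplasmic RNA, and to 0.23 and 0.16 in H69 polysomal RNA. When 1 library was left out, H69 cytoplasmic changes ran from -0.33 to 0.10 for MALAT1, -1.16 to 1.69 for NEAT1, -0.66 to 0.37 for KCNQ1OT1 and -1.53 to 0.11 for MEG3. H69 polysomal changes ran from -0.58 to 1.13 for MALAT1, -1.75 to 2.37 for NEAT1 and -1.59 to 0.76 for MEG3. In H69M they ran from -2.13 to 0.13 for NEAT1 and -0.020 to 0.40 for KCNQ1OT1 in cytoplasmic RNA, and from -0.37 to 0.76 for MALAT1 and -1.35 to 0.52 for NEAT1 in polysomal RNA. Shares of counts moved by less than the spread between libraries without mitochondrial and ribosomal RNA in the total. Depth was lowest for KCNQ1OT1 in polysomal RNA, at 82 to 328 counts a library.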
